A study of Mus musculus with 62 samples.

Results

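Cd9, Itga6, Itgb1, Thy1, Epcam, Cdh1 and Mcam encode surface and adhesion proteins used to sort or describe spermatogonia and their stem cells. These 7 genes were taken by name from 35914 nuclear genes with read counts in a study that rebuilt male germ cell development of the mouse from embryonic stem cells. The 3′ ends of transcripts were sequenced in 62 libraries, 2 for each of 31 groups. All 7 genes passed the filter on low counts, which kept 16008 genes. Each level below is a CPM value, the read count of a gene scaled to a common total of nuclear reads by TMM, and levels of different genes depend on how well each 3′ end was read.

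The GSC-like lines (germline stem cell-like cultures W1 to W4, S1 to S4, 16_W1, 16_W2 and 16_W4, 2 libraries each) were labelled Acr-EGFPTg/0 with Actin-EGFPTg/0 on 129/SvJcl x C57BL/6. The protocol derives such lines from m14 cells sorted for their reporters and for CD9 protein with an APC antibody. Spermatogonia-like cells (m10, m12, m14), prospermatogonia-like cells (m0, m3, m5, m7) and PGC-like cells (d4, d4c5; PGC stands for primordial germ cell) carried Prdm1-mVenusTg/0, Dppa3-ECFPTg/0 and mvh(Ddx4)-RFPTg/0 on B6C3(Cg) × C57BL/6. The protocol mixes PGC-like cells with somatic cells of E12.5 ICR testes, cleared of their own germ cells with magnetic beads, to form reconstituted testes. GSC1, a germline stem cell line, had the genotype and strain labels of the GSC-like lines. Spermatogonia (P0, P1, P3, P5, P7) and prospermatogonia (E14.5 to E18.5) were sorted from testes of Ddx4-RFPTg/0 mice, ICR x B6C3(Cg)B6F1(5N). Strain, reporters and culture therefore differ together between culture and testis, and genotype and strain also differ between the GSC-like lines and m14. The sources used here do not explain W, S, 16, d, c and m.

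Prospermatogonia are fetal male germ cells that stop dividing before birth and become spermatogonia in the first days after it, when they come to lie on the basement membrane of the seminiferous tubule. Integrins bind that membrane: α6 integrin, from Itga6, pairs with β1 integrin, from Itgb1, as a laminin receptor, and both have been used to enrich spermatogonial stem cells. Cd9 is a tetraspanin, a membrane protein that gathers integrins into patches. Cdh1 (E-cadherin) and Epcam hold like cells together, and E-cadherin also marks primordial germ cells and undifferentiated spermatogonia. Thy1 and Mcam (CD146) are members of the immunoglobulin superfamily. Thy1 is also carried by T cells, neurons and fibroblasts, and Mcam by endothelial cells and pericytes.

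Libraries held 1404261 to 4485280 reads of nuclear genes (median 2895092.5) and 13532 to 23630 genes with a read. Each of 8 germ cell markers, among them Ddx4 and Dazl, was read in every stage and line set, and their summed level lay between 677 and 1834 CPM in PGC-like cells and between 2081 and 7812 CPM in the other stages and the lines. Differences between the 2 libraries of a group exceeded counting noise (1 on this scale), with a ratio of chi-squared to degrees of freedom between 1.53 at P1 and 16.7 at d4c5. The labels do not say that 2 libraries of a group came from separate animals or cultures. Each p outside the comparisons among lines thus rests on a spread between such libraries, shared over all groups, which may be technical. Comparisons of lines with each other or with GSC1 rest on the spread between lines. In sorted bulk cells, a smaller share of cells that express a gene cannot be told apart from less of its RNA in each cell.

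In GRCm38.p6, the build named in the submitters' processing notes, Cd9 lies at chr6:125460266-125494760 on the minus strand and Itga6 at chr2:71786886-71858427 on the plus strand. Cdh1 (chr8:106603350-106670247) and Itgb1 (chr8:128685654-128733579) share a chromosome, as do Thy1 (chr9:44043384-44048579) and Mcam (chr9:44134658-44142727), and Epcam lies at chr17:87635979-87651127; these 5 genes are on the plus strand. The end of Thy1 and the start of Mcam are 86079 bases apart. The long noncoding genes Gm28809 and Gm26728 overlap Cd9, and the sources used here do not give the strand setting of the authors' counting. In the RefSeq annotation no gene overlaps the remaining 6.

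Promoters are shown for the 4 of 7 genes that the RefSeq promoter table of GRCm38.p6 holds. Each sequence runs 5′ to 3′ on the gene's own strand from 250 bases before to 50 bases after its start. Capitals mark 4 motifs searched on both strands: the GC box GGGCGG, the E-box CAGGTG, the TATA box TATAAA and the cAMP response element TGACGTCA.
Cd9, chr6:125494711-125495010, minus strand: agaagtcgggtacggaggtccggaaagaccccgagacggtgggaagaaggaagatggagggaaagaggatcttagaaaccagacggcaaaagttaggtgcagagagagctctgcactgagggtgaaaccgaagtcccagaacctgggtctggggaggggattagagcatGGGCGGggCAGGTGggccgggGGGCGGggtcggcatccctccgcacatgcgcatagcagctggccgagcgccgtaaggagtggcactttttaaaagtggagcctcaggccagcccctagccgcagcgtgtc
Epcam, chr17:87635729-87636028, plus strand: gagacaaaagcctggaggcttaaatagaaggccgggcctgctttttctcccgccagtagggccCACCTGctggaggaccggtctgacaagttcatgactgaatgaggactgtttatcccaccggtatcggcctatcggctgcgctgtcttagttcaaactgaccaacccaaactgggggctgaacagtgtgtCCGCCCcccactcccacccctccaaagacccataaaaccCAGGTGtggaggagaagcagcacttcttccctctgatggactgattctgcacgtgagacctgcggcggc
Itgb1, chr8:128685404-128685703, plus strand: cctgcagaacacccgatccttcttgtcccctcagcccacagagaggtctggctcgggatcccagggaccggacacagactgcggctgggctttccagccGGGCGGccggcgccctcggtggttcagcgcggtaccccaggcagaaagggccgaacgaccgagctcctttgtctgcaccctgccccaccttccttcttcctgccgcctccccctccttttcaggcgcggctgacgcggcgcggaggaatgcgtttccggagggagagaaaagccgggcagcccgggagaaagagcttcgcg
Mcam, chr9:44134408-44134707, plus strand: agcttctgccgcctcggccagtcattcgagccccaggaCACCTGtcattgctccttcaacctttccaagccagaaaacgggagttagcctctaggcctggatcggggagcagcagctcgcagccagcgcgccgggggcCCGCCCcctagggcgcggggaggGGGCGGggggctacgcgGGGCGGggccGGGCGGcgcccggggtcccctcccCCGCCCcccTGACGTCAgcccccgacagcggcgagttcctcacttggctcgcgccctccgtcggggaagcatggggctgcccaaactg
The Mcam promoter held 5 GC boxes, 1 E-box and 1 cAMP response element. Cd9 had 2 GC boxes and 1 E-box, Epcam 1 GC box and 2 E-boxes, and Itgb1 1 GC box, and no TATA box was found in these 4 windows. Among all 32851 promoters of the table, 35.7% held the GC box, 20.2% the E-box, 13.6% the TATA box and 1.79% the cAMP response element. CpG pairs numbered 29 in Mcam, 27 in Itgb1, 18 in Cd9 and 11 in Epcam, against a median of 7 over all promoters. No marked motif overlapped another, and a match is a description of these letters only.

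In culture, Mcam was low in PGC-like cells and stood higher at later time points. It had 3.06 and 2.61 CPM at d4, 15.3 and 5.69 CPM at d4c5, and 5.75 CPM in both m0 libraries. It then had 12.7 and 8.06 CPM at m3, 28.9 and 21.0 CPM at m5, and 63.9 and 47.7 CPM at m7. At m10 it had 118 and 89.9 CPM, at m12 136 and 153 CPM, and at m14 119 and 128 CPM. From m3 to m10 each time point lay above the one before it, with no overlap of libraries. In vivo Mcam had 45.2 and 32.5 CPM at E14.5 and between 50.5 and 83.3 CPM from E15.5 to E18.5. It had 98.1 and 127 CPM at P0, 146 and 153 CPM at P1, 319 and 298 CPM at P3, 148 and 175 CPM at P5, and 98.3 and 97.9 CPM at P7. P3 was the highest of all 31 groups, with no overlap with the next.

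Cdh1 ran the other way in culture. Its highest level of all groups was at d4c5, with 178 and 194 CPM, followed by 168 and 157 CPM at d4. It had 104 and 97.8 CPM at m0, 55.2 and 55.4 CPM at m3, 18.4 and 12.9 CPM at m5, and 7.52 and 4.51 CPM at m7. Libraries of these 4 neighbouring time points did not overlap. From m10 to m14 its 6 libraries had 6.27 to 19.1 CPM. In vivo the course of Cdh1 was V-shaped, with 74.3 and 79.2 CPM at E14.5, 10.0 and 15.47 CPM at E16.5, and 92.9 and 132 CPM at P3. It stood at 22.3 and 35.4 CPM by P7.

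Thy1 had no read in any of the 6 libraries of d4, d4c5 and m0, where 3 reads would have given 0.332 CPM over all 6. At m3 replicate 1 had no read and replicate 2 had 2 reads (0 and 1.01 CPM). The gene had 1.97 and 8.59 CPM at m5, 51.4 and 23.8 CPM at m7, 30.9 and 24.3 CPM at m10, 49.7 and 32.7 CPM at m12, and 13.5 and 11.6 CPM at m14. In vivo Thy1 already had 18.6 and 11 CPM at E14.5. It was highest at E17.5, with 58.0 and 67.4 CPM, still had 54.1 and 52.9 CPM at P1, and then 35.4 and 27.4 CPM at P3, 14.2 and 5.08 CPM at P5, and 3.35 and 3.64 CPM at P7. Both courses thus held a period of high Thy1 with lower levels on either side.

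Cd9 and Epcam each dipped in both courses, at partly different time points. At m3 Cd9 already had 108 and 85.2 CPM, while Epcam had 92.6 and 202 CPM. In culture Cd9 had 304 and 215 CPM at d4, 101 and 78.6 CPM at m7, and 328 and 198 CPM at m10. In vivo it had 270 and 224 CPM at E14.5, 54.4 and 67.1 CPM at E17.5, and 458 and 489 CPM at P3. Epcam had 160 and 156 CPM at d4, 39.4 and 57.3 CPM at m5, and 64.2 and 118 CPM at m10. In vivo Epcam had 85.5 and 86.3 CPM at E14.5, 53.0 and 56.0 CPM at E16.5, and 84.2 and 101 CPM at P0. It was low again at P1, with 48.3 and 57.8 CPM, and had 181 and 226 CPM at P3. Cd9 had 147 and 166 CPM at P1. Cd9 was lowest at m7 and E17.5 by group mean, and Epcam at m5 and P1. Epcam was also low in replicate 2 of m14, with 49.7 CPM.

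In vivo the integrin genes varied least between time points, with highest to lowest ratios of 3.14 for Itga6 and 3.39 for Itgb1. In culture that ratio was 2.82 for Itgb1, the lowest of the 6 genes read at every time point, and 5.11 for Itga6. Itgb1 had 42.6 to 84.7 CPM from d4 to m7, then 83 and 97.8 CPM at m10, 92.5 and 149 CPM at m12, and 124 and 171 CPM at m14. In vivo it had 58.4 to 93.8 CPM in prospermatogonia and 142 to 206 CPM in spermatogonia, with its highest level at P1. Itga6 had 23.7 and 13.9 CPM at d4, 23.3 and 10.7 CPM at d4c5, and 53.6 and 77.4 CPM at m0. It had 23.8 to 51.4 CPM from m3 to m7 and 74.1 to 93.5 CPM from m10 to m14. In vivo Itga6 had 33.7 to 49.4 CPM in prospermatogonia, 119 and 121 CPM at P3, and 56.1 and 69.1 CPM at P7.

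**Figure D1:**
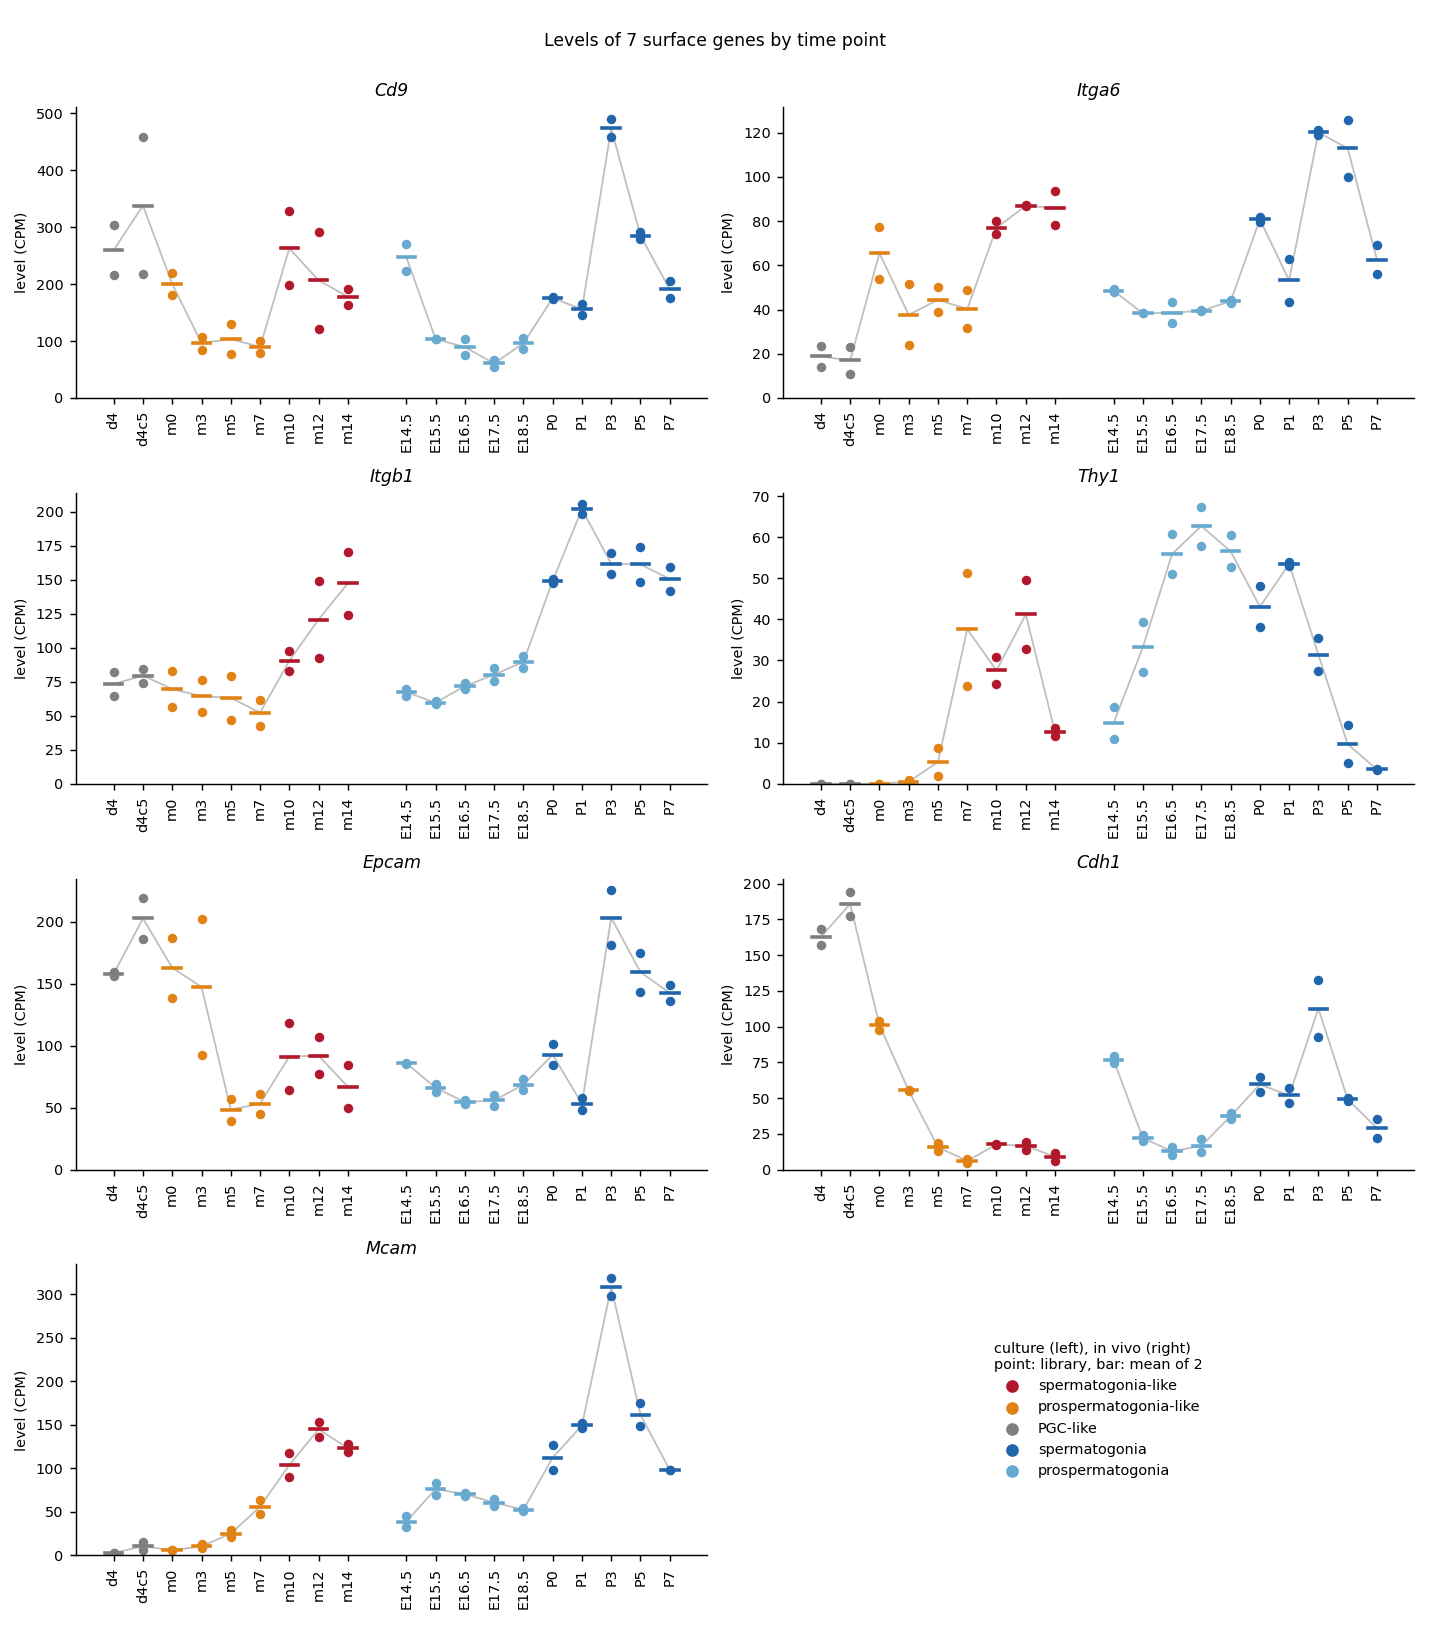
Level of each gene in CPM (vertical axis, linear, from 0) at the culture time points d4 to m14 (left) and the in vivo time points E14.5 to P7 (right). Points are libraries, bars are means of 2 and colours are stages; 5 of the 7 genes have their in vivo maximum at P3, and Thy1 is at 0 CPM from d4 to m0 in culture.

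Spermatogonia were first set against prospermatogonia in vivo, to ask which surface genes differ across the fetal to postnatal change. Mcam, Itgb1, Cd9 and Cdh1 were higher in spermatogonia and Thy1 was lower. A gene was called when edgeR's quasi-likelihood test gave an adjusted p (Benjamini-Hochberg over all genes tested) below 0.05 and the change was at least 1 on the log2 scale, a doubling. By that rule 5 of 7 genes were called, and so were 32.9% of all genes tested (11.2% higher and 21.7% lower). The median log2 fold change was 1.04 over the 7 genes and -0.12 over all genes.

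Mcam ranged from 97.9 to 319 CPM (median 147) in spermatogonia, against 32.5 to 83.3 CPM (median 60.7) in prospermatogonia. The libraries of the 2 stages did not overlap, and its log2 fold change was 1.39 ± 0.09 (SE; edgeR adjusted p = 3.01e-20). Itgb1 did not overlap either, with 142 to 206 CPM (median 157) in spermatogonia, against 58.4 to 93.8 CPM (median 72.2) in prospermatogonia (log2 fold change 1.17 ± 0.09, SE). Cd9 averaged 256 ± 124 CPM in spermatogonia and 119 ± 70.4 CPM in prospermatogonia (SD, n = 10 each), a log2 fold change of 1.15 ± 0.13 (SE). Cdh1 averaged 60.4 ± 31.3 CPM in spermatogonia and 33.1 ± 24.8 CPM in prospermatogonia (SD, n = 10 each), with a log2 fold change of 1.04 ± 0.14 (SE). Thy1 averaged 28.2 ± 20.5 CPM in spermatogonia and 44.6 ± 19.6 CPM in prospermatogonia (SD, n = 10 each), and its log2 fold change was -1.07 ± 0.17 (SE). Ranges of Cd9, Cdh1 and Thy1 overlapped. Itga6 (0.98 ± 0.10, SE) and Epcam (0.85 ± 0.11, SE) were below the doubling on the log2 scale, with edgeR adjusted p of 2.59e-13 and 5.83e-10. DESeq2 called 3 of the 7 genes, with Cd9 at 0.98 and Cdh1 at 0.88, and moved the median of all genes by -0.16. Scaling by library total moved that median by 0.15 and left Thy1 at -0.92 and Itga6 at 1.12. Without both P1 libraries, Itga6 (1.10) and Epcam (1.11) were called too, so that 7 of 7 genes were. With each time point summed to 1 unit, the calls of Cdh1 (0.84, adjusted p = 0.185) and Thy1 (-0.73, adjusted p = 0.398) were lost. Itga6 (1.02, edgeR adjusted p = 0.000189) was called in that setting. In limma with each of 3 pseudocounts Itga6 was called (1.03 to 1.11) and Thy1 was not (-0.90 to -0.66). Itga6 was also called without certain single libraries (1.01 to 1.05). Their calls were also lost without certain single libraries, for Thy1 replicate 1 of E14.5, replicate 2 of E15.5 or replicate 2 of P5 (log2 fold changes -0.95 to -0.98), and for Cdh1 replicate 2 of P3 (0.98) or of P7 (0.96).

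Markers of somatic cells also differed between these stages. Of those tested, 7 of 9 stromal, 6 of 8 endothelial, 4 of 6 pericyte and smooth muscle, 4 of 4 Leydig and 3 of 6 Sertoli markers were called lower in spermatogonia and none higher. Summed stromal markers had 45.7 to 147 CPM in spermatogonia and 90.7 to 495 CPM in prospermatogonia. Endothelial sums had 25.1 to 161 CPM in spermatogonia and 51.6 to 193 CPM in prospermatogonia, and pericyte sums 11 to 62 CPM in spermatogonia and 19.97 to 115 CPM in prospermatogonia. T cell markers summed to 3.67 to 17 CPM in spermatogonia and 13.7 to 44.8 CPM in prospermatogonia. None of the stromal, endothelial, pericyte or T cell markers was at 0 in all libraries of either stage. Endothelial and pericyte sums were lower where Mcam was higher, and stromal and T cell sums were lower where Thy1 was lower; their part in either result was not tested.

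The same contrast in culture, spermatogonia-like against prospermatogonia-like cells, called Mcam and Thy1 higher, 2 of 7 genes, with 18.7% of all genes called (13.3% higher and 5.35% lower). Mcam ranged from 89.9 to 153 CPM (median 123) in spermatogonia-like cells, against 5.75 to 63.9 CPM (median 16.9) in prospermatogonia-like cells, with no overlap and a log2 fold change of 2.87 ± 0.14 (SE; edgeR adjusted p = 8.24e-26). Thy1 ranged from 11.6 to 49.7 CPM (median 27.6) in spermatogonia-like cells, against 0 to 51.4 CPM (median 1.49) in prospermatogonia-like cells. Its ranges overlapped, since both m7 libraries were at the level of m10 to m12. The fitted log2 fold change of Thy1, 3.91 ± 0.43 (SE), rests on m0 libraries without a read and so depends on the prior count of the fit. Without m0 and m3 it was 0.73 (edgeR adjusted p = 0.0452), which is below the doubling, while Cd9 (1.16) and Itgb1 (1.03) were called; with time points as units it was 1.29 (adjusted p = 0.393).

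Itgb1 (0.91 ± 0.11, SE), Cd9 (0.88 ± 0.16, SE) and Itga6 (0.84 ± 0.12, SE) stood just below the doubling on the log2 scale in culture. Scaling by library total took all 3 past it, to 1.14, 1.12 and 1.07, moved the median of all genes by 0.23, and called 2868 genes of all higher and 580 lower, against 2134 higher and 857 lower in the TMM scaling. In that scaling, and in limma with each of 3 pseudocounts, 5 of 7 genes were called. Cd9 had 122 to 328 CPM in spermatogonia-like cells, against 77.3 to 219 CPM in prospermatogonia-like cells. Cdh1 averaged 14.4 ± 4.83 CPM in spermatogonia-like cells (SD, n = 6) and 44.5 ± 40.1 CPM in prospermatogonia-like cells (SD, n = 8), a log2 fold change of -0.97 ± 0.23 (SE). Leaving out replicate 2 of m5 or replicate 1 of m12 brought 4 genes past the threshold, Itgb1 and Cdh1 besides the 2 called. Epcam averaged 83.3 ± 25.7 CPM in spermatogonia-like cells (SD, n = 6) and 103 ± 64.9 CPM in prospermatogonia-like cells (SD, n = 8; log2 fold change -0.12 ± 0.13, SE). Macrophage markers, 8 of 8, and 7 of 9 stromal markers were called higher in spermatogonia-like cells. Macrophage sums had 54.3 to 536 CPM in spermatogonia-like cells and 2.52 to 62.5 CPM in prospermatogonia-like cells. Stromal sums had 289 to 778 CPM in spermatogonia-like cells and 22.1 to 521 CPM in prospermatogonia-like cells, and none of these markers was at 0 throughout a stage. T cell markers summed to 3.27 to 17.7 CPM in spermatogonia-like cells, with Cd3e and Cd3g at 0, and 8.57 to 37.7 CPM in prospermatogonia-like cells. Endothelial sums had 40.5 to 88.5 CPM in spermatogonia-like cells and 54.5 to 162 CPM in prospermatogonia-like cells, and pericyte sums 22.4 to 60.2 CPM in spermatogonia-like cells and 25.6 to 70.2 CPM in prospermatogonia-like cells. The part of these cell types in the levels of Thy1 and Mcam was not tested.

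The change in culture was then tested against the change in vivo. Thy1, Cdh1 and Mcam were called, 3 of 7 genes, with 26.8% of all genes (18.9% higher and 7.84% lower). The difference, culture minus in vivo on the log2 scale, was 4.98 ± 0.46 for Thy1, -2.003 ± 0.27 for Cdh1 and 1.48 ± 0.17 for Mcam (SE). Epcam was below the doubling at -0.97 ± 0.17 (SE; edgeR adjusted p = 5.12e-06) and was called when certain of the 34 libraries were left out, 17 of them one at a time. Cd9 (-0.26 ± 0.20, SE), Itga6 (-0.14 ± 0.16, SE) and Itgb1 (-0.26 ± 0.14, SE) had adjusted p above 0.05. Without m0 and m3, Thy1 alone was called, while Cdh1 was at -0.47 (adjusted p = 0.388) and Mcam at 0.39 (adjusted p = 0.107). No gene was called with time points as units: Thy1 was at 2.03 (adjusted p = 0.284), Cdh1 at -2.62 (adjusted p = 0.0722) and Mcam at 0.91 (adjusted p = 0.342).

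**Figure D2:**
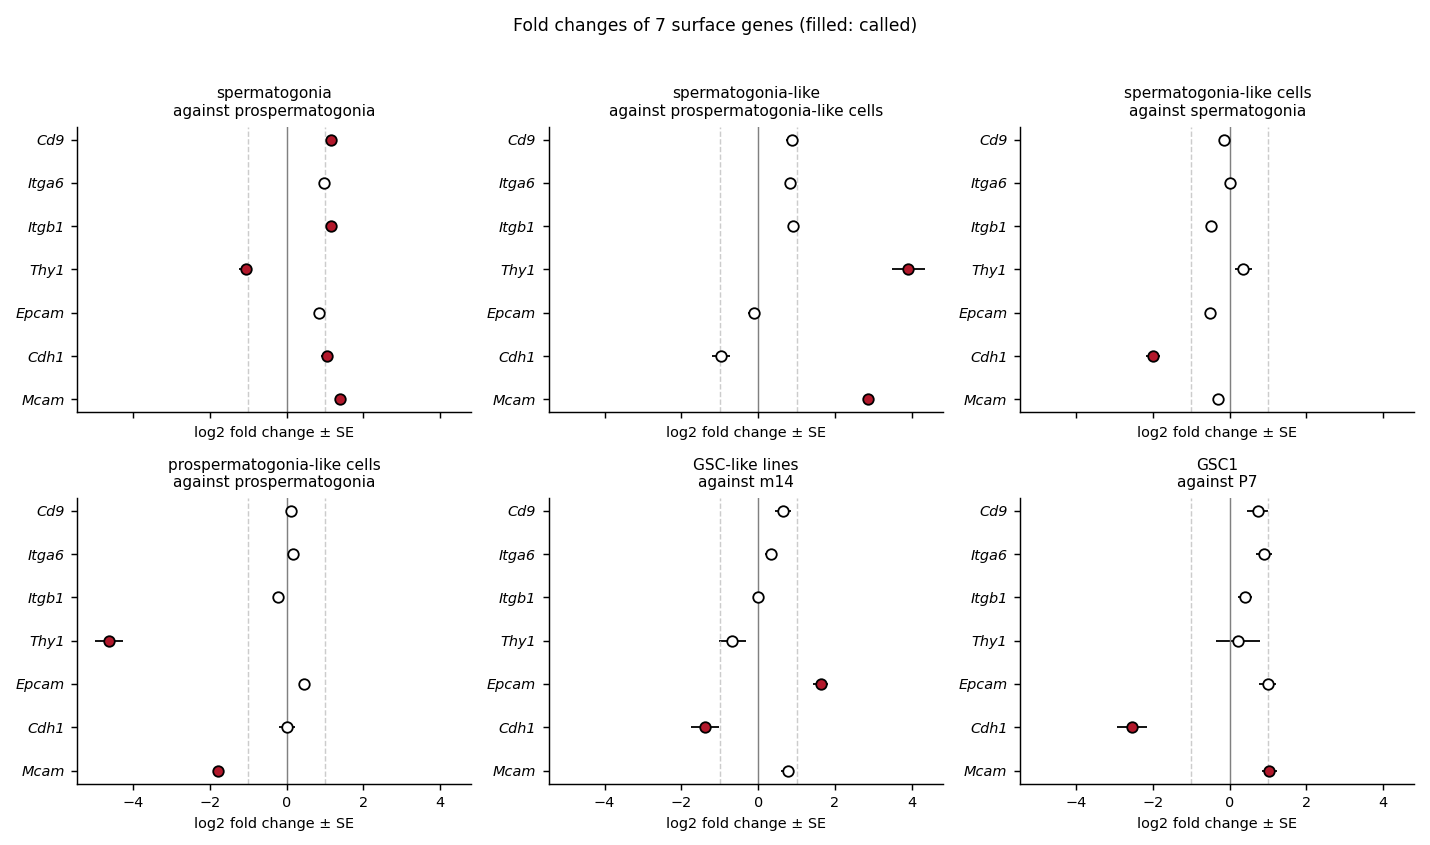
Log2 fold change of each gene (horizontal axis; bars are standard errors of the edgeR fit) in 6 comparisons, the first named group over the second. Filled points were called, dashed lines mark a change of 1 on the log2 scale; Mcam is filled at 1.39 in vivo and 2.87 in culture, and Cdh1 is filled at -1.99 in spermatogonia-like cells against spermatogonia.

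Cells from culture were also set against their in vivo namesakes. Averaged over m0 to m7, prospermatogonia-like cells had less Thy1 and Mcam than prospermatogonia, 2 of 7 genes called with 38.7% of all genes (12.2% higher and 26.5% lower). By group mean, Thy1 had 0, 0.504, 5.28 and 37.6 CPM at m0, m3, m5 and m7, and Mcam 5.75, 10.4, 24.9 and 55.8 CPM. PGC-like cells at d4c5 had 0 CPM of Thy1 and 10.5 CPM of Mcam. Only the m7 means lay within the range of the prospermatogonia libraries. Mcam averaged 24.2 ± 21.5 CPM in prospermatogonia-like cells (SD, n = 8) and 59.7 ± 14.8 CPM in prospermatogonia (SD, n = 10), a log2 fold change of -1.79 ± 0.13 (SE). Thy1 averaged 10.8 ± 18.3 CPM in prospermatogonia-like cells (SD, n = 8) and 44.6 ± 19.6 CPM in prospermatogonia (SD, n = 10). Its fitted value of -4.62 ± 0.36 (SE) again rests on libraries at 0. Without m0 and m3, Mcam was at -0.69 (edgeR adjusted p = 6.47e-05), below the doubling. Cdh1, at 0.01 ± 0.22 (SE) over all 4 time points, then turned to -1.51 (adjusted p = 4.76e-06). Of the markers tested, 6 of 8 endothelial, 3 of 6 pericyte and smooth muscle and 3 of 4 Leydig markers were called lower in prospermatogonia-like cells and 4 of 6 Sertoli markers higher. Endothelial sums had 54.5 to 162 CPM in prospermatogonia-like cells and 51.6 to 193 CPM in prospermatogonia, and pericyte sums 25.6 to 70.2 CPM in prospermatogonia-like cells and 19.97 to 115 CPM in prospermatogonia. Their part in the Mcam result was not tested.

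Spermatogonia-like cells differed from spermatogonia in Cdh1, the 1 gene called of 7, with 10.9% of all genes (6.86% higher and 4.04% lower). Cdh1 had 6.27 to 19.1 CPM (median 15.49) in spermatogonia-like cells, against 22.3 to 132 CPM (median 52.2) in spermatogonia, with no overlap. Its log2 fold change was -1.99 ± 0.19 (SE; edgeR adjusted p = 1.17e-12), and with time points as units -2.09 (adjusted p = 0.0536). Itgb1 (-0.48 ± 0.10, SE), Epcam (-0.52 ± 0.12, SE) and Mcam (-0.31 ± 0.11, SE) had adjusted p below 0.05 without reaching a doubling. Cd9 (-0.14 ± 0.14, SE), Itga6 (0.02 ± 0.11, SE) and Thy1 (0.36 ± 0.21, SE) had adjusted p above 0.05. Macrophage sums were 54.3 to 536 CPM in spermatogonia-like cells and 4.74 to 20.8 CPM in spermatogonia, with 8 of 8 markers called higher, as were 5 of 6 Sertoli and 8 of 9 stromal markers. Sertoli sums were 285 to 566 CPM in spermatogonia-like cells and 25.7 to 101 CPM in spermatogonia; their part in the Cdh1 result was not tested.

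Neighbouring time points showed when the genes changed. In vivo, 9 steps gave 12 calls among 63 tests of these genes, 8 higher and 4 lower, and no step called Itgb1 with all libraries in. At E15.5 against E14.5, Cd9 (-1.25 ± 0.29, SE) and Cdh1 (-1.79 ± 0.31, SE) fell and Thy1 rose (1.18 ± 0.39, SE), on the log2 scale, with 10.7% of all genes called. At E18.5 against E17.5 Cdh1 rose by 1.17 ± 0.32 (SE), with 2.32% of all genes called, and at P0 against E18.5 Mcam rose by 1.10 ± 0.20 (SE), with 3.62% of all genes called. P3 against P1 held 5 of the 12 calls, with 23.2% of all genes called (6.87% higher). Epcam (1.93 ± 0.24, SE), Cd9 (1.60 ± 0.28, SE), Itga6 (1.16 ± 0.21, SE), Cdh1 (1.11 ± 0.29, SE) and Mcam (1.05 ± 0.20, SE) all rose there. The P1 libraries were unlike the others in added spike-in RNA (ERCC), with 0.251% and 0.216% of their reads. In the other in vivo libraries that share was 3.98% to 7.24%. Preparation and age thus cannot be told apart at P1. At P5 against P3 Thy1 (-1.74 ± 0.40, SE) and Cdh1 (-1.19 ± 0.28, SE) fell, with 2.97% of all genes called. With the filter on low counts and all libraries in, no gene was called by edgeR, DESeq2 or limma at E16.5 against E15.5, E17.5 against E16.5, P1 against P0 or P7 against P5. In edgeR an unadjusted p below 0.05 was reached there by 2, 0, 4 and 5 of the 7 genes in that order. Of all 16008 genes tested, 5035, 1270, 5116 and 2406 reached that p. By the full rule edgeR called 10.6%, 0.0562%, 10.1% and 2.14% of all genes there. At P7 against P5 edgeR called Thy1 without the filter (-1.44, adjusted p = 0.0452), and Itga6 without replicate 2 of P5 or of P7 (-1.01 each). Of the 5 genes called at P3 against P1, DESeq2 called 3 and limma 2, and DESeq2 did not call Mcam at P0. Thy1 at E15.5 lost its call without any 1 of the 4 libraries (log2 fold changes 0.76 to 1.49). Cdh1 lost its call at E18.5 without replicate 2 of E17.5 or either library of E18.5 (0.82 to 1.24), at P3 without replicate 1 of P1 or replicate 2 of P3 (0.98 and 0.83), and at P5 without replicate 2 of P3 or either library of P5 (-1.22 to -0.92). Thy1 at P5 was lost without replicate 1 of P3 (-1.54) or replicate 2 of P5 (-1.14), Itga6 at P3 without replicate 1 of P1 (0.94), and Mcam at P0 without replicate 2 of P0 (0.90) and at P3 without replicate 1 of P3 (1.00).

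In culture, 8 steps gave 11 calls among 56 tests, 8 higher and 3 lower, and no step called Itgb1 with all libraries in. Mcam rose at d4c5 against d4 (1.85 ± 0.54, SE), with 4.96% of all genes called. Itga6 rose at m0 against d4c5 (1.96 ± 0.27, SE), with 2.8% called, and Cd9 fell at m3 against m0 (-1.06 ± 0.30, SE), with 6.18% called. At m5 against m3, with 15.6% of all genes called, Epcam (-1.62 ± 0.25, SE) and Cdh1 (-1.85 ± 0.36, SE) fell and Mcam rose (1.30 ± 0.33, SE). Thy1 was called higher there too, against the 2 reads of m3, for which no fold is given. At m7 against m5 Thy1 (2.72 ± 0.49, SE) and Mcam (1.18 ± 0.26, SE) rose, with 10.6% called. At m10 against m7 Cd9 (1.55 ± 0.30, SE) and Cdh1 (1.54 ± 0.48, SE) rose, with 7.2% called. There 6 of 7 genes reached an unadjusted edgeR p below 0.05, as did 4253 of all 16008 genes. The adjusted p of these 6 was also below 0.05, for which the share of all genes was not counted. Itga6 was called at m10 against m7 with library total scaling (1.04). Leaving out 1 library of m7 or m10 at that step also called Itga6 (1.29 without replicate 1 of m7), Itgb1 (1.08 without replicate 2 of m7), Mcam (1.13 without replicate 1 of m7, 1.08 without replicate 2 of m10) or Epcam (1.01 without replicate 2 of m7, 1.15 without replicate 1 of m10). None of these genes was called by edgeR at m12 against m10 (4.26% of all genes called) or m14 against m12 (0.0437% called). An unadjusted p below 0.05 was reached by 2 of the 7 genes in each, and by 3614 and 1481 of all 16008 genes. At m14 against m12 Thy1 had the log2 fold change -1.70 ± 0.41 (SE; edgeR adjusted p = 0.100), and DESeq2 called 1 gene there and limma none. Mcam lost its call at d4c5 without either library of d4 or replicate 1 of d4c5 (1.02 to 2.02), at m5 without replicate 2 of m3 (0.95), and at m7 without replicate 2 of m5 or replicate 1 of m7 (0.95 each). Cd9 at m3 was lost without replicate 1 of m0 or replicate 2 of m3 (-0.97 and -0.89), Epcam at m5 without replicate 2 of m3 (-0.92), and Cdh1 at m10 without either library of m7 or replicate 1 of m10 (1.22 to 1.95). Thy1 at m5 was lost without either library of m3 or replicate 2 of m5, and Thy1 at m14 was called without replicate 2 of m12 (-1.98).

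**Figure D3:**
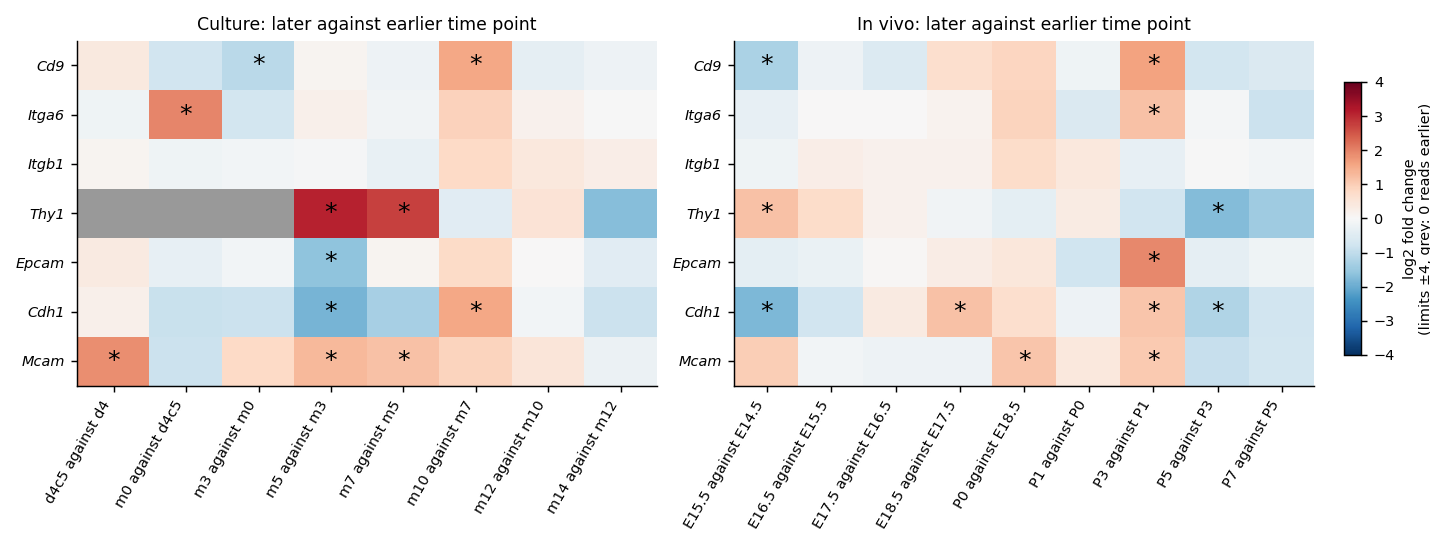
Log2 fold change (colour, limits of ±4) of each gene at every step between neighbouring time points, later over earlier, in culture (left) and in vivo (right). Stars mark calls and grey marks Thy1 where the earlier time point had no read; 5 of 12 in vivo stars stand at P3 against P1 and 4 of 11 culture stars at m5 against m3.

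Partner genes of the 7 were grouped into 8 lists. Their counts are to be read beside the shares of all genes called. Those were 11.2% higher and 21.7% lower in vivo, and 13.3% higher and 5.35% lower in culture. Several lists lay near these shares, and no list was tested as a set. In vivo, 3 of 20 integrin subunits tested were called higher in spermatogonia, Itga3, Itgb1 and Itgb5, and 7 lower, with a median log2 fold change of -0.66. Itga3, another laminin-binding α chain, averaged 10.9 ± 6.35 CPM in spermatogonia and 2.63 ± 1.38 CPM in prospermatogonia (SD, n = 10 each). Itga11, an α chain for collagen, fell to 2.76 ± 3.21 CPM in spermatogonia, against 19.97 ± 10.7 CPM in prospermatogonia (SD, n = 10 each). In culture the same list had 7 genes called higher, 1 lower and a median of 0.65. Itga3 averaged 18.45 ± 5.60 CPM in spermatogonia-like cells (SD, n = 6) and 6.02 ± 2.90 CPM in prospermatogonia-like cells (SD, n = 8). Itgb2, a β chain of white blood cells, averaged 7.46 ± 3.10 CPM in spermatogonia-like cells (SD, n = 6) and 1.36 ± 2.17 CPM in prospermatogonia-like cells (SD, n = 8), beside the macrophage sums above.

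Among basement membrane ligands, 2 of 17 were called higher in spermatogonia and 5 lower (median log2 fold change -0.27). Nid2, a nidogen that links laminin to collagen, averaged 179 ± 44.3 CPM in spermatogonia and 52.8 ± 13.2 CPM in prospermatogonia (SD, n = 10 each). Lama5, a laminin α chain, averaged 53.7 ± 14.2 CPM in spermatogonia and 22.9 ± 11.3 CPM in prospermatogonia (SD, n = 10 each). In culture 4 were called higher and none lower (median 0.16), with Lama5 at 35.9 ± 8.91 CPM in spermatogonia-like cells (SD, n = 6) and 10.5 ± 13.1 CPM in prospermatogonia-like cells (SD, n = 8). Tetraspanins and their partners split into 4 higher and 5 lower of 25 in vivo (median 0.00) and 4 higher and none lower in culture (median 0.44). Cd82, a relative of Cd9, averaged 20.8 ± 13.3 CPM in spermatogonia and 2.21 ± 1.22 CPM in prospermatogonia (SD, n = 10 each). In culture Cd82 averaged 26.4 ± 6.83 CPM in spermatogonia-like cells (SD, n = 6) and 2.86 ± 1.81 CPM in prospermatogonia-like cells (SD, n = 8).

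Of 12 cadherins and catenins, 3 were called higher and 3 lower in vivo (median -0.22), and 1 higher in culture (median 0.16). Ctnna1, the α-catenin that ties cadherins to actin, averaged 211 ± 45.1 CPM in spermatogonia and 79.7 ± 18.7 CPM in prospermatogonia (SD, n = 10 each). Of 18 epithelial surface genes, 4 were called higher and 4 lower in vivo (median 0.61), and 3 each way in culture (median 0.32). Ocln, a tight junction protein, rose in both contrasts, with log2 fold changes of 1.60 ± 0.13 in vivo and 2.43 ± 0.23 in culture (SE), and so did Spint1, a protease inhibitor of epithelia (1.19 ± 0.09 and 3.61 ± 0.17, SE). Of 14 immunoglobulin family adhesion genes, 3 were higher and 6 lower in vivo (median -0.86), and 6 higher and 2 lower in culture (median 0.39). L1cam, a neural adhesion molecule, had a log2 fold change of -2.68 ± 0.23 (SE) in vivo. Pecam1, known from endothelium and primordial germ cells, had -3.03 ± 0.27 (SE) in culture.

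Integrin adhesion adaptors had 2 of 18 called higher and 3 lower in vivo (median 0.22), and 1 each way in culture (median 0.13). Among 11 other spermatogonial surface markers, 3 were higher and 2 lower in vivo (median -0.07), and 6 higher and 2 lower in culture (median 1.22). Gfra1 and Ret, the 2 chains of the receptor for the stem cell factor GDNF, rose in both. Gfra1 averaged 178 ± 96.8 CPM in spermatogonia and 9.06 ± 5.33 CPM in prospermatogonia (SD, n = 10 each), and 104 ± 29.998 CPM in spermatogonia-like cells (SD, n = 6) and 2.25 ± 3.10 CPM in prospermatogonia-like cells (SD, n = 8). The median of all genes was -0.12 in vivo and 0.11 in culture. Counts of a list include those of the 7 genes it holds.

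**Figure D4:**
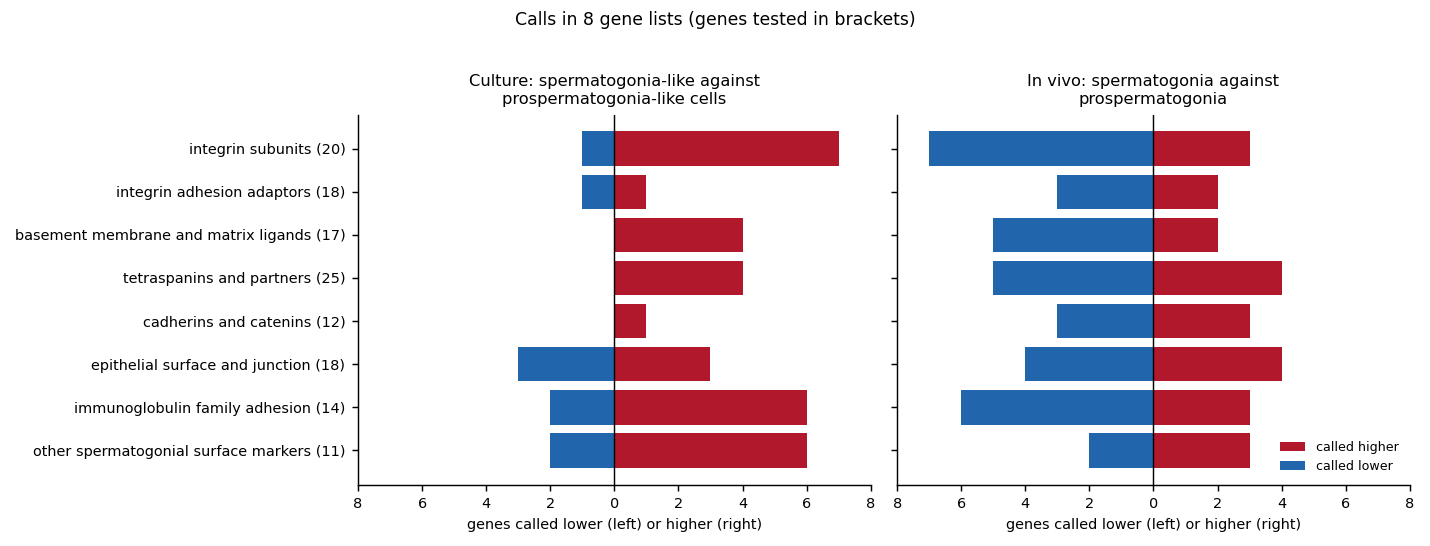
Number of genes called higher (right, red) or lower (left, blue) in each of 8 lists, for spermatogonia-like against prospermatogonia-like cells (left panel) and spermatogonia against prospermatogonia (right panel), with genes tested in brackets. Integrin subunits have 7 higher and 1 lower in culture and 3 higher and 7 lower in vivo. Of all genes tested, 13.3% were called higher and 5.35% lower in culture, and 11.2% higher and 21.7% lower in vivo.

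The GSC-like lines were set against m14, the culture stage they are derived from by the protocol. Epcam was higher and Cdh1 lower in the lines, 2 of 7 genes called with 13.8% of all genes (4.12% higher and 9.71% lower). Epcam ranged from 157 to 276 CPM (median 203) over 22 libraries of the lines, against 49.7 and 84.0 CPM at m14, with no overlap and a log2 fold change of 1.63 ± 0.20 (SE; edgeR adjusted p = 6.06e-09). Cdh1 ranged from 0.244 to 7.28 CPM (median 3.50) in the lines, against 6.27 and 11.7 CPM at m14 (log2 fold change -1.40 ± 0.37, SE). It rests on few reads, 228 over the 22 libraries of the lines and 38 over both m14 libraries. The Cdh1 call was lost without replicate 1 of m14 (-0.88, adjusted p = 0.313). With lines and time points as units neither gene was called, Epcam at 1.68 (adjusted p = 0.168) and Cdh1 at -1.29 (adjusted p = 0.607). Mcam ranged from 154 to 284 CPM in the lines, against 119 and 128 CPM at m14, also without overlap (0.77 ± 0.16, SE). Cd9, whose protein the sort before derivation used, ranged from 184 to 467 CPM (median 272) in the lines, against 163 and 192 CPM at m14 (0.65 ± 0.22, SE). Itga6 (0.34 ± 0.16, SE), Itgb1 (0.01 ± 0.14, SE) and Thy1 (-0.67 ± 0.34, SE) had adjusted p above 0.05. Macrophage markers, 8 of 8, were called lower in the lines, with sums of 2.90 to 15.4 CPM against 322 to 419 CPM at m14, and 4 of 6 Sertoli markers were lower, with sums of 15.1 to 75.7 CPM against 288 to 478 CPM at m14. Their part in these results was not tested.

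GSC1 was set against P7 spermatogonia, and 2 of 7 genes were called with 13.4% of all genes (6.6% higher and 6.84% lower). Cdh1 had 4.06 and 5.72 CPM in GSC1, against 22.3 and 35.4 CPM at P7 (log2 fold change -2.54 ± 0.38, SE; edgeR adjusted p = 8.12e-07). Mcam had 199 and 202 CPM in GSC1, against 98.3 and 97.9 CPM at P7 (1.03 ± 0.20, SE). Epcam had 301 and 266 CPM in GSC1, against 136 and 149 CPM at P7 (0.99 ± 0.22, SE), and passed the doubling in all 7 alternative settings of tool, scaling, filter and pseudocount. Itga6 was at 0.89 ± 0.21 (SE), Cd9 at 0.74 ± 0.27, Itgb1 at 0.39 ± 0.19 and Thy1 at 0.21 ± 0.57 (SE). Without replicate 2 of P7, 4 genes were called, Itga6 (1.05) and Epcam (1.06) besides the others. Of 9 stromal markers 4 were called higher in GSC1, with sums of 157 to 233 CPM against 58.2 to 74.0 CPM at P7, and their part in these results was not tested.

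With reads summed by line, no gene was called between the GSC-like lines and GSC1 (3.68% of all 12106 genes tested were called), between S and W lines (1.73%), between 16_W and W lines (3.39%) or between 16_W and S lines (6.81%). DESeq2 and limma also called none of the 7, and edgeR gave an unadjusted p below 0.05 to 3, 2, 3 and 3 of them in that order. Of all 12106 genes, 3150, 4058, 3621 and 5621 reached that p in the same order. Thy1 averaged 8.18 CPM over 11 lines and 4.01 CPM in GSC1, a log2 fold change of 1.01 ± 0.42 (SE; edgeR adjusted p = 0.130), and without line 16_W1 it was called, at 1.12. Itgb1 had 128 to 173 CPM in the lines, against 192 and 204 CPM in GSC1, with no overlap (-0.40 ± 0.10, SE). Cd9 had line means of 291 to 445 CPM in the 3 16_W lines, against 197 to 291 CPM in the 4 S lines (0.69 ± 0.17, SE; edgeR adjusted p = 0.0119). Between lines the coefficient of variation was 7.72% for Itgb1, 11.1% for Mcam, 11.3% for Itga6, 13.5% for Epcam, 26.0% for Cd9, 29.0% for Cdh1 and 29.3% for Thy1. The last 2 genes had few reads in the lines, 228 for Cdh1 and 515 for Thy1 over 22 libraries.

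**Figure D5:**
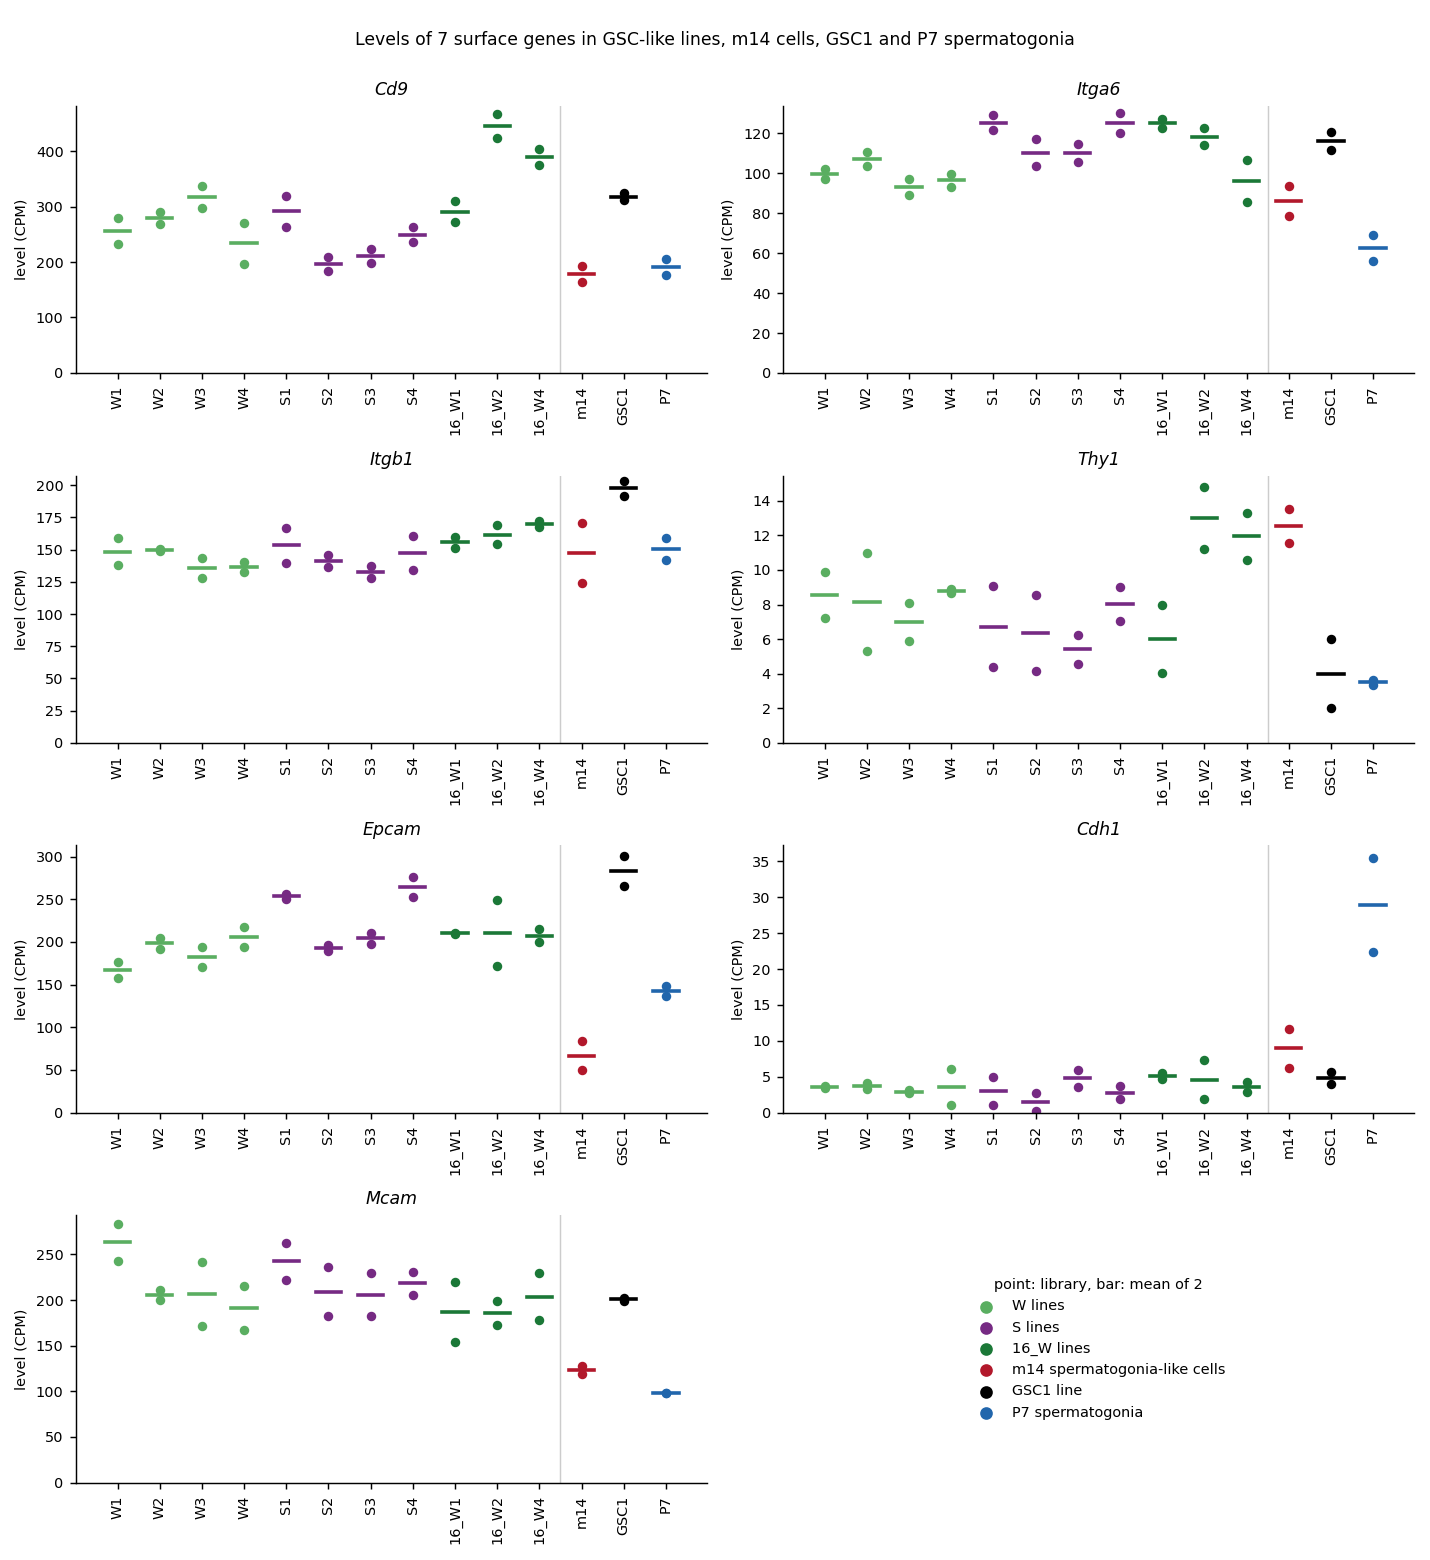
Level of each gene in CPM (vertical axis, linear, from 0) in 11 GSC-like lines, m14 spermatogonia-like cells, the GSC1 line and P7 spermatogonia. Points are libraries and bars means of 2; every Epcam point of the lines lies above both m14 points, and Cdh1 in the lines and GSC1 lies below both P7 points.

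Ordered by mean level over all 31 groups, the 7 genes differed in their extremes. Cd9 was highest at P3 (474 CPM) and lowest at E17.5 (60.7 CPM), Mcam highest at P3 (308 CPM) and lowest at d4 (2.83 CPM), and Itgb1 highest at P1 (202 CPM) and lowest at m7 (52.2 CPM). Itga6 was highest in line S1 (125 CPM) and lowest at d4c5 (17 CPM), Epcam highest in GSC1 (283 CPM) and lowest at m5 (48.3 CPM), and Cdh1 highest at d4c5 (186 CPM) and lowest in line S2 (1.46 CPM). Most neighbours in these orders did not differ beyond their libraries. Of 30 neighbouring pairs, those without overlap numbered 9 for Mcam, 6 for Cdh1, 4 each for Cd9, Itga6 and Epcam, 3 for Thy1 and 2 for Itgb1. The same count was not made for other genes, so these numbers cannot be called high or low.

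Over the 31 group means of log2(CPM + 1), Itga6 went most closely with Mcam among the 7 (Pearson r = 0.84), followed by Cd9 with Epcam (0.79), Itga6 with Itgb1 (0.76) and Itgb1 with Mcam (0.76). Cdh1 ran against Mcam (-0.69). Among 10566 genes of at least 20 CPM in some group, those most like Mcam were Luzp4 (r = 0.97), Efhc2 (0.96) and Kcnab3 (0.96). The nearest to Cdh1 were Enpp3 (0.90), Tfap2c (0.89), which encodes a transcription factor of primordial germ cells, and Utrn (0.89). Lrig3 (0.93), Cfap43 (0.93) and Rhobtb1 (0.93) were nearest to Thy1, and Naa50 (0.93), Hnrnpd (0.93) and Suz12 (0.93), a Polycomb protein, to Epcam. For Itga6 they were Plin3 (0.92), Erbb2 (0.91), a receptor tyrosine kinase, and Plat (0.91), the tissue plasminogen activator. Khdrbs1 (0.91), Foxc2 (0.91) and Zc3hav1l (0.90) were nearest to Itgb1, and Fbxl14 (0.87), Trim6 (0.87) and St13 (0.86) to Cd9. These correlations describe groups that share libraries, culture and strain, and the 12 line groups weigh heavily in them.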

How the data were processed

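RNA was made into 3′-end libraries (SC3-seq) from 62 samples of 31 groups. The authors trimmed reads with cutadapt 1.9.1, mapped them with TopHat2 2.0.11 and Bowtie2 2.2.7 to GRCm38.p6 and counted them with HTSeq 0.9.1, per the submitters' processing notes. The deposited values used here are read counts per gene, per the file headers. Spike-in, mitochondrial, transgene and unnamed entries were left out of library sizes, which were 1404261 to 4485280 reads. Groups follow the labels.

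Genes with at least 5 RPM in 2 libraries were fitted with edgeR 4.0.16 (R 4.3.3; TMM, robust quasi-likelihood), 1 coefficient per group and 31 residual degrees of freedom. Stages were compared as averages over their time points on the log2 scale, so p-values do not include the spread between time points. Comparisons among GSC-like lines and GSC1 used reads summed by line, with 12106 genes and 8 residual degrees of freedom. A standard error is the log2 fold change divided by the square root of F. Fits that leave out a library keep the dispersion trend of the full fit, and a lone library is assumed to vary like the other groups. The edgeR procedure was tried on simulated counts for 1 comparison, spermatogonia against prospermatogonia, with log2 changes of 2 or 3 in either direction. Steps between time points, line comparisons and changes near the threshold were not simulated. Alternatives were limma 3.58.1, DESeq2 1.42.0, other scalings, filters, pseudocounts and units, a replicate block over all libraries or (added after seeing the data) within culture, and each library left out. The text names the 7 genes, examples from the 4 called genes of each list with the largest absolute log2 fold change, and the 3 genes most like each of the 7; Itgb5 was named after its values were seen. Genes and lists were chosen with earlier results of these data known.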

Additional observations from a re-analysis of the deposited data

Results flagged for a closer look

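For 3 genes the change in culture differed from the change in vivo when the difference itself was tested. Thy1 had a difference of 4.98 on the log2 scale (culture minus in vivo): spermatogonia-like cells had more Thy1 than prospermatogonia-like cells, and spermatogonia had less than prospermatogonia. This value rests on m0 libraries without a Thy1 read and so depends on the prior count of the fit; with time points as units it was 2.03 (edgeR adjusted p = 0.284). Cdh1 had a difference of -2.003, with a log2 fold change of -0.97 in culture and 1.04 in vivo. For Mcam the difference was 1.48, and it rose in both, by 2.87 in culture and 1.39 in vivo. Both differences depend on m0 and m3. Without them, Cdh1 was at -0.47 (edgeR adjusted p = 0.388) and Mcam at 0.39 (edgeR adjusted p = 0.107). With time points as units neither was called (edgeR adjusted p = 0.0722 for Cdh1 and 0.342 for Mcam). The highest and lowest of the W and S lines were also examined for each of the 7 genes, and no line was flagged in these 14 sets. With only 4 lines in a set this check can hardly flag a line, so no conclusion is drawn from it. For Mcam, line W1 had a mean of 263 CPM, against 207 CPM in W3, 205 CPM in W2 and 191 CPM in W4. The remaining GSC-like lines were not examined in this way.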

How the results depend on the processing

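Of 3338 values of the 7 genes under alternatives, 3149 kept their direction and side of the threshold, 85 lost a call, 103 gained one and 1 reversed: Cdh1 in prospermatogonia-like cells against prospermatogonia was -1.51 without m0 and m3. Of the 7 genes, the number called moved as follows, while the percentages of all genes called given above are those of the main fits. In vivo it was 3 with DESeq2, 7 without both P1 libraries, 6 with library total scaling, 4 with a filter of 20 RPM, no filter or time points as units, and 4 to 6 with single libraries left out. In culture it was 5 with library total scaling and with limma at each pseudocount, 3 with DESeq2, a filter of 20 RPM, no filter or without m0 and m3, 1 with time points as units, and 2 to 4 with single libraries left out. For the difference between culture and in vivo it was 0 with time points as units, 1 without m0 and m3, and 3 to 4 with single libraries left out. For spermatogonia-like cells against spermatogonia it was 0 with time points as units. For the GSC-like lines against m14 it was 1 with limma and a pseudocount of 5, 0 with lines and time points as units, and 1 to 2 with single libraries left out. GSC1 against P7 gave 2 to 4 calls, and the lines against GSC1 0 to 1, with single libraries or lines left out. In vivo steps gave 7 calls with limma and a pseudocount of 0.5, and 10 to 13 with single libraries left out; culture steps gave 8 to 12. Except where the units or time points themselves were fewer, the cause was not tested. Same-numbered libraries deviated together (r above 0.1) in 24 of 465 pairs of groups, none of the 45 in vivo pairs but 21 of the 36 culture pairs (median r 0.132). In culture Cd9 was higher in replicate 1 and Itgb1 higher in replicate 2 at all 9 time points. The share of mitochondrial reads was lower in replicate 1 at every culture time point but d4 (9.77% against 8.21%). It was 3.38% against 10.5% at m3 and 4.56% against 17.2% at m10. Since no label gives the numbers a meaning and not every culture pair was above 0.1, the main fit left the libraries unpaired. That does not show same-numbered culture libraries to be independent. With a replicate block, 1 term shared by all libraries, the calls numbered 5 in vivo, 2 in culture, 3 for their difference, 12 over in vivo steps and 11 over culture steps as without it. A replicate block for culture time points only, chosen after seeing the data, left the culture stage counts at 2 of 7 and the difference at 3, and gave 13 calls over culture steps, adding Cdh1 at m7 against m5 (-1.35, adjusted p = 0.0385) and Thy1 at m14 against m12 (-1.69, adjusted p = 0.0307). Thy1 and Cdh1 in the lines, with 515 and 228 reads over 22 libraries, are limited by depth.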
